A study of Homo sapiens with 31 samples.

Results

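The genes described here are 48 protein-coding genes of nucleolar ribosome biogenesis, chosen by name with earlier results of these data known. All 48 were found among the 25073 gene rows of the table that holds TMD8 cells with changed or unchanged RHOA. They were compared between TMD8 cells carrying the p.R5W change in RHOA (R5W, 2 libraries) and TMD8 cells with WT RHOA (WT, 2 libraries). TMD8 is an established human cell line of ABC DLBCL, the activated B-cell-like type of a common aggressive lymphoma. RHOA encodes a small GTPase that is best known for controlling the actin cytoskeleton. Both groups had been kept overnight in 50 nM copanlisib, an inhibitor of PI3K, so no untreated R5W or WT cells enter the comparison. The labels do not say how the change was made, whether the WT cells went through the same procedure, whether the R5W cells are 1 clone, or whether the 2 replicates of a group came from separate cultures, so p-values measure the spread between these libraries, which may be technical. The other 27 of the 31 libraries of the series come from cells given DMSO, Ibrutinib or Rhosin and are not used for these genes.

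Ribosomes are built in the nucleolus. RNA polymerase I transcribes the large rRNA precursor there, small nucleolar ribonucleoproteins (snoRNPs) guide the chemical modification and cleavage of that precursor, and successive sets of assembly factors fold it and join it with ribosomal proteins into the small and the large subunit. Growing cells, lymphoma cells among them, make many ribosomes, and the transcription factor MYC is known to drive many genes of this machinery by binding DNA with its partner MAX, preferably at the sequence CACGTG, called the canonical E-box.

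The E-box was found near the start of many of these genes, and stretches of their promoters are shown because they hold the motif more often than other genes of the reference table do. A promoter window here is the 300 bases from 250 before to 50 after a RefSeq transcription start, on GRCh38.p14. Windows were listed for 43 of the 48 genes, and not for BOP1, RRS1, NOP58, RRP12 and NOLC1. CACGTG equals its own reverse complement, so 1 search covers both strands. Each line gives 80 bases, 5′ to 3′ on the gene's strand, from position -50 to position 30, where position 1 is the first transcribed base. Capitals mark CACGTG. The first 9 genes shown hold it in this stretch. NOC3L and UTP18 among them were not called between R5W and WT in the expression data below. NOP14, DDX21 and UTP20, which were called, and IMP4 and NOP10, which were not, also hold it there and are not shown. DKC1 and NPM3, both called higher, hold none in their windows. POLR1A, HEATR1, DDX10 and RIOK2, not called and not shown, hold none either.
MRTO4 (chr1:19251755-19251834, plus strand): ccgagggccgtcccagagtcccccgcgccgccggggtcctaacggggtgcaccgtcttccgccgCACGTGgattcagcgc
GNL3 (chr3:52685982-52686061, plus strand): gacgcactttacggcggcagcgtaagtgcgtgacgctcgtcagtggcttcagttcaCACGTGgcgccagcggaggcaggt
FBL (chr19:39846350-39846429, minus strand): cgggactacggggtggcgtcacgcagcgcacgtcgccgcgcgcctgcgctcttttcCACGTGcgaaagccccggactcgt
RRP9 (chr3:51941875-51941954, minus strand): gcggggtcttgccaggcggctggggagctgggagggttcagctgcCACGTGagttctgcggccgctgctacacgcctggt
PES1 (chr22:30591881-30591960, minus strand): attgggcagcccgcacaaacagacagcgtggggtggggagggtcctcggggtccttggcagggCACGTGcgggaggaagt
PNO1 (chr2:68157838-68157917, plus strand): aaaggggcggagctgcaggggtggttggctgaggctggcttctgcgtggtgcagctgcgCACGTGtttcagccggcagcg
WDR43 (chr2:28894617-28894696, plus strand): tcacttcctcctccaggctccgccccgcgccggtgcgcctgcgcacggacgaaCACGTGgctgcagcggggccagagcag
NOC3L (chr10:94362910-94362989, minus strand): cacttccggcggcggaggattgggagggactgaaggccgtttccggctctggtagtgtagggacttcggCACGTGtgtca
UTP18 (chr17:51260496-51260575, plus strand): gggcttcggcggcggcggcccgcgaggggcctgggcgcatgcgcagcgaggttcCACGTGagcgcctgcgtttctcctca
DKC1 (chrX:154762814-154762893, plus strand): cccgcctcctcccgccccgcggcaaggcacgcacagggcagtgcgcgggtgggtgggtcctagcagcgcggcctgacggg
NPM3 (chr10:101783417-101783496, minus strand): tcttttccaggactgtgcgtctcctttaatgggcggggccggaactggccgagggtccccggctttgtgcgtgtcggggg

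CACGTG occurred in 20 of the 43 genes with a listed window (46.5%), against 2396 of all 27305 genes in the table (8.77%). It began at position -10 or later in 17 of the 43 (39.5%), against 420 of all genes (1.54%); this position limit was chosen after the positions had been seen. Genes with several starts have several windows, and by window the counts were 21 of 53 (39.6%) for these genes and 2548 of 35116 (7.26%) for all. In MRTO4 the motif began at position 15, in GNL3 and FBL at position 7, in WDR43 at position 4 and in RRP9 at position -5. LYAR held it farther upstream, at position -64. It occurred a second time within 1 window in IMP4 at -203 and 16, NOP10 at -170 and -11, and UTP18 at -89 and 5. EBNA1BP2 held it once in each of 2 windows, at -237 from 1 start and at 43 from the other. It was present in 15 of the 34 called genes that have a window and in 5 of the 9 uncalled ones. These matches describe letters only and say nothing about binding in these cells.

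**Figure D1:**
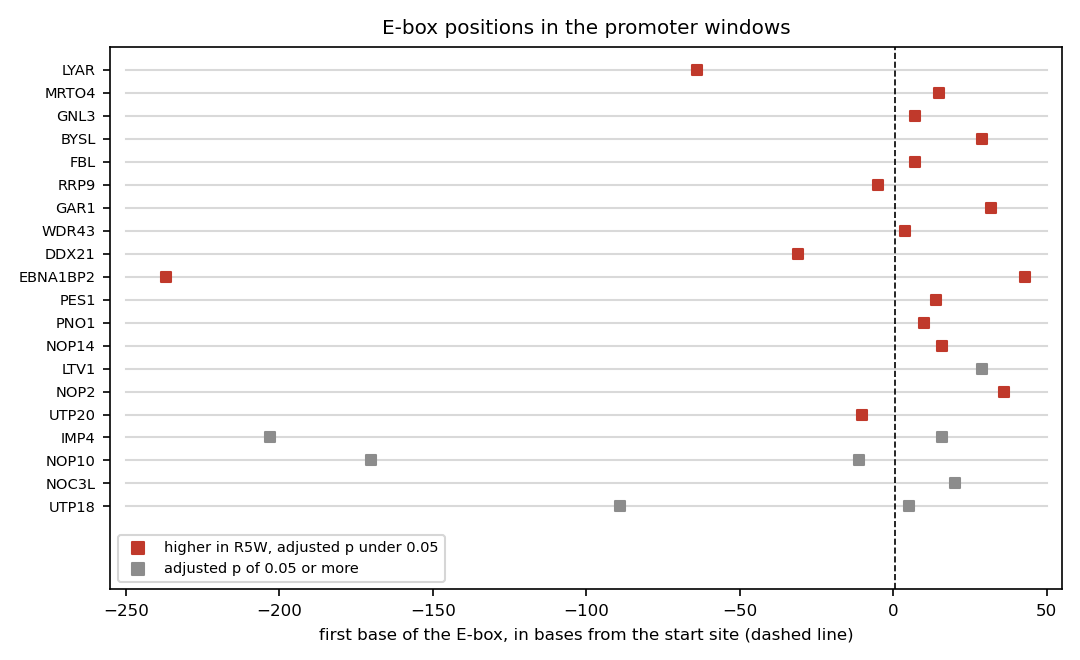
Position of each CACGTG in the promoter windows of the 20 genes that hold it, in bases from the transcription start (dashed line). Red squares are genes higher in R5W at an adjusted p under 0.05, grey squares the other genes, and most squares lie at or just after the start; the 2 squares of EBNA1BP2 are counted from different starts.

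RHOA itself checks only the amount of the transcript, because the values carry no sequence of the altered codon. Its log2 values were 13.65 and 13.73 in R5W and 13.83 and 13.70 in WT, and the limma difference was -0.07 (SE 0.075, adjusted p = 0.531). The 4 libraries held 19460572 to 21956526 reads assigned to genes. The B-cell markers CD79A, CD79B, MS4A1, PAX5 and IRF4 were abundant, with log2 values above 13 in every library, while CD3D of T cells and EPCAM of epithelium were at 0 in all 4. Of 7 B-cell markers, 1 was higher in R5W (IRF4, log2 fold change 0.91, adjusted p = 1.46e-06) and 4 were lower, among them MS4A1 (-0.66, adjusted p = 0.000149). Over all genes tested, 13.1% were called higher and 11.9% lower. Both R5W values lay below both WT values in 5 of the 7 markers, against 30.6% of all genes. The median log2 fold change of the 7 was -0.25. Their summed level, which mixes higher and lower markers, was 143789 and 149285 scaled counts in R5W and 148118 and 146767 in WT. These sums overlapped between the groups. COL1A1, a fibroblast collagen, was at log2 values of 8.67 and 8.60 in R5W and 7.10 and 7.48 in WT (1.33, SE 0.156, adjusted p = 5.46e-05). Of 7 listed markers of other cell types, 2 were abundant enough to be tested, COL1A1 and 1 that was not called (log2 fold change -0.31). The part of these marker differences in the results below was not tested. In bulk RNA, fewer cells with a transcript and less of it per cell cannot be told apart.

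The nucleolar genes were higher in R5W as a group. They were chosen with earlier results of these data known, so their counts beside all genes are a description and no test of the group. A level below is a scaled count, the linear form of the deposited value, which is the read count times 1 factor per library. A fold change is the difference R5W minus WT on the log2(value + 1) scale from a limma fit of all 13698 genes that reached a scaled count of 10 in at least 2 libraries, and a gene was called at a Benjamini-Hochberg adjusted p under 0.05 over those genes. All 48 genes passed the filter, each with 212 to 27764 reads per library. Of them 38 were called higher, 0 lower and 10 were not called; over all genes 13.1% were called higher and 11.9% lower. Each of the 48 had a fold change above 0, their median was 0.40 (1.32-fold), and 13.3% of all genes tested lay above that median; the median of all genes was 0.01. At an unadjusted p under 0.05, 43 of the 48 passed. The called genes ran from NOC2L (0.24, 1.18-fold) to LYAR (0.78, 1.71-fold), with adjusted p from 7.36e-05 (MRTO4) to 0.0436 (IMP3). Changes were moderate in size: LYAR stood 639th by fold change among all genes tested, and 12 of the 48 reached a log2 fold change of 0.5.

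In 45 of the 48 genes both R5W values lay above both WT values, which held for 32.4% of all genes tested. The exceptions were UTP18, RIOK2 and BOP1, none of them called. Together the 48 genes took 0.784% and 0.771% of the reads assigned to genes in R5W, against 0.583% and 0.593% in WT. Both R5W libraries were thus above both WT libraries, and the replicates of a group lay close to each other. Relative to the mean of the WT libraries, the median log2 difference over the 48 genes was 0.43 in R5W replicate 1 and 0.35 in R5W replicate 2. R5W replicate 1 was above R5W replicate 2 in 32 of the 48 (66.7%), against 47.6% of all genes. The number of calls depended on which library was left out. Without WT replicate 1, 14 of the 48 were called (4.16% of all genes called higher), and without WT replicate 2, 18 (4.85%), while the median stayed at 0.40 and 0.41. Without R5W replicate 1 or 2, 42 and 44 were called (16.7% and 20.9% of all genes), with medians of 0.35 and 0.43. With every library kept, edgeR on recovered reads called 38 (13.0% of all genes called higher), DESeq2 on recovered reads 33 (9.67%), limma with no filter 38 (9.84%) and limma with a filter at 50 scaled counts 39 (14.8%). When 1 library is left out, the lone library of its group is assumed to vary like the others. The spread within a group then comes only from the group that keeps both of its libraries. FBL, NOP56, NOP58, DKC1, NCL, NPM3, NOLC1, GNL3, LYAR, WDR43, MRTO4, NOP16 and RRS1 were called with each of the 4 libraries left out in turn.

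**Figure D2:**
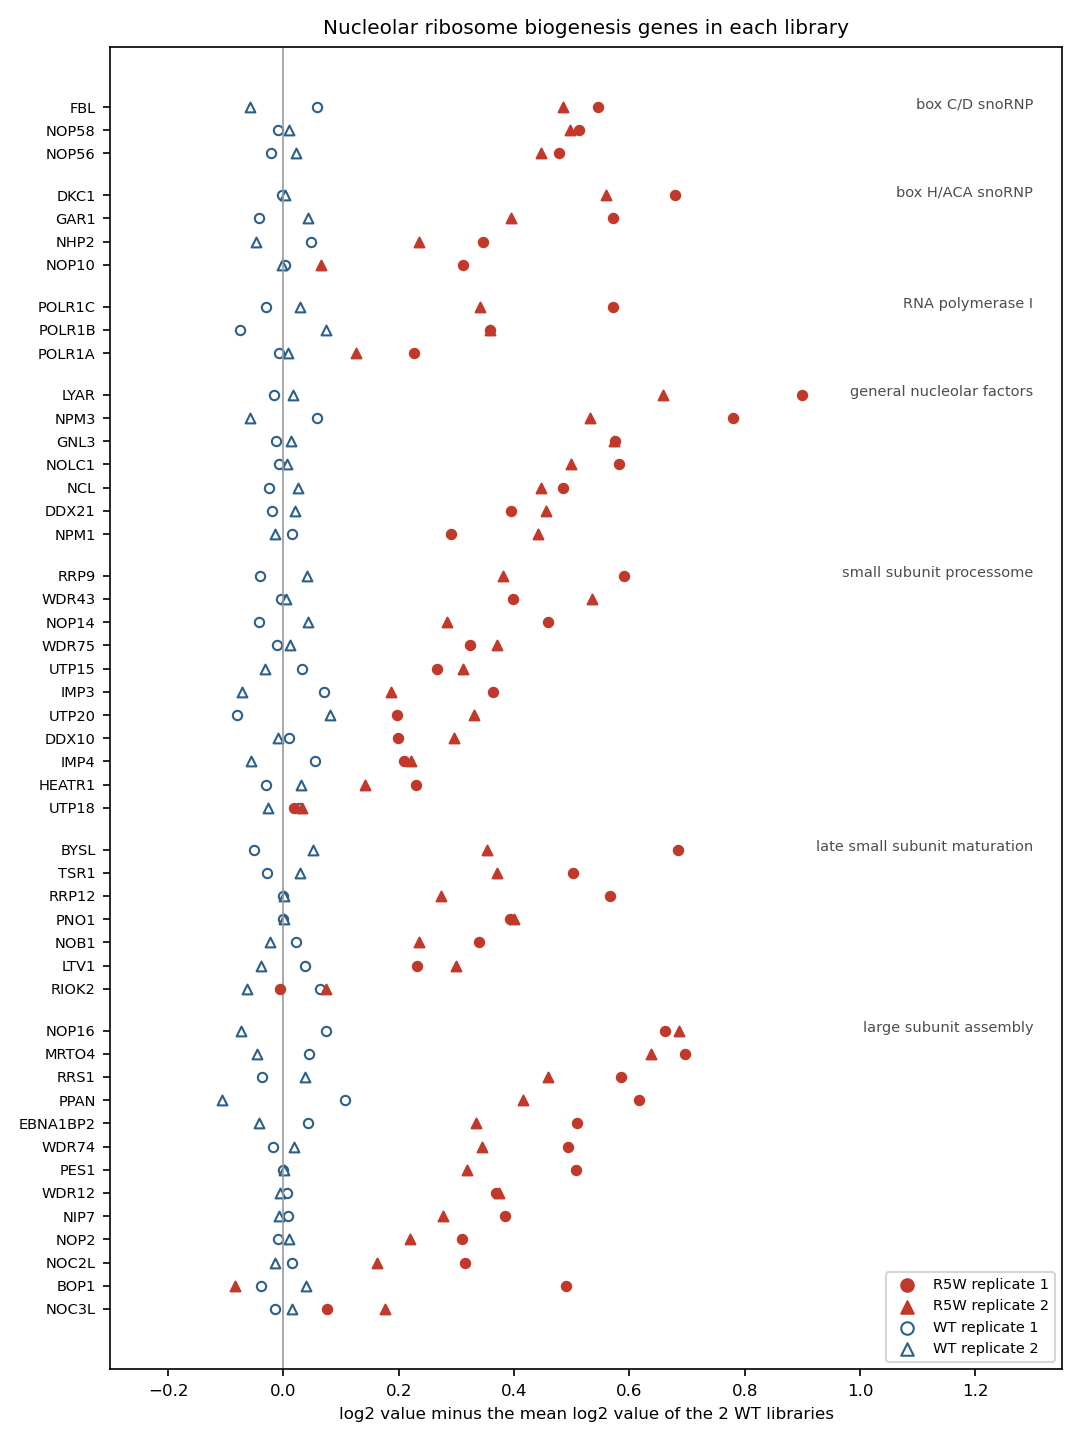
Log2 value of each of the 48 genes in each library minus the mean log2 value of the 2 WT libraries, grouped by role; red filled symbols are R5W, blue open symbols WT, circles replicate 1 and triangles replicate 2. Red symbols lie to the right of the blue ones in all rows but UTP18, RIOK2 and BOP1.

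The box C/D snoRNPs, which guide ribose methylation of rRNA, were represented by the methyltransferase FBL (fibrillarin) and the core proteins NOP56 and NOP58. FBL had 10735 and 10297 scaled counts in R5W, against 7654 and 7068 in WT. The R5W values were well apart from the WT values, at a distance larger than the spread within either group. The log2 fold change of FBL was 0.52 (SE 0.075, adjusted p = 0.000301). NOP58 rose by 0.50 and NOP56 by 0.46, so that all 3 were called and the median was 0.50; all 3 were also called with any 1 library left out. Of the box H/ACA snoRNPs, which guide pseudouridylation, 3 of 4 core genes were called and the median was 0.39. DKC1, the pseudouridine synthase dyskerin, had 5964 and 5492 scaled counts in R5W, against 3719.8 and 3733 in WT. The WT replicates were almost equal and the lower R5W value was still far above them. DKC1 rose by 0.62 (SE 0.076, adjusted p = 8.47e-05). GAR1 (0.48) and NHP2 (0.29) were also called, and NOP10 was not (0.19, adjusted p = 0.168). Without WT replicate 1 or 2, 1 and 2 of the 4 were called.

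RNA polymerase I, the enzyme that makes the rRNA precursor, had 2 of 3 genes called. POLR1C, a subunit that polymerase I shares with polymerase III, had 1464 and 1249 scaled counts in R5W, against 965 and 1006 in WT. The R5W replicates differed more from each other than the WT replicates did, and neither overlapped them. POLR1C rose by 0.46 (SE 0.098, adjusted p = 0.00449). POLR1B, the second largest subunit, rose by 0.36, with 3258.5 scaled counts in each R5W library and 2415 and 2678 in WT. POLR1A, the largest subunit, had a fold change of 0.18 (adjusted p = 0.122) and was not called. Neither POLR1B nor POLR1C was called without WT replicate 1 or without WT replicate 2; POLR1C then had an adjusted p of 0.115 and 0.0664.

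The general nucleolar factors were all called, 7 of 7, with a median of 0.54, and 4 of the 8 genes with the highest fold changes were among them. LYAR, a zinc-finger protein of the nucleolus linked to cell growth, had 719 and 608 scaled counts in R5W, against 381 and 389.6 in WT. Its R5W libraries differed by more than its WT libraries, yet the gap between the groups, 0.64 on the log2 scale, was the widest of the 48 genes. LYAR rose by 0.78 (SE 0.117, adjusted p = 0.00041). NPM3, of the nucleoplasmin family of histone chaperones, had 1686 and 1419 scaled counts in R5W, against 1023 and 943 in WT, and rose by 0.65 (SE 0.101, adjusted p = 0.000476). GNL3, the GTP-binding protein nucleostemin, had 6221 and 6208 scaled counts in R5W, against 4139 and 4211 in WT, and rose by 0.57 (SE 0.072, adjusted p = 0.000103). Its replicates were almost equal within each group. NOLC1, a chaperone of snoRNPs also called Nopp140, had 9535 and 9002 scaled counts in R5W, against 6339 and 6401 in WT, and rose by 0.54 (SE 0.072, adjusted p = 0.000167).

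Nucleolin (NCL) and nucleophosmin (NPM1), abundant structural proteins of the nucleolus, and the RNA helicase DDX21 had smaller fold changes. NCL had 34112 and 33225 scaled counts in R5W, against 23954 and 24799 in WT, and rose by 0.47. DDX21 had 11755 and 12254 scaled counts in R5W, against 8817 and 9071 in WT, and rose by 0.42. NPM1 had 25443 and 28231 scaled counts in R5W, against 21013 and 20581 in WT, and rose by 0.37. NPM1 has many near-identical pseudogenes, so the share of reads that reached its row is uncertain. Without WT replicate 1, 5 of the 7 general factors were called, and without WT replicate 2, 6.

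The small subunit processome is the large complex that forms on the rRNA precursor for the small subunit, and 7 of its 11 genes were called, with a median of 0.27. RRP9, a protein of the U3 snoRNP at the centre of this complex, had 1916 and 1657 scaled counts in R5W, against 1237 and 1309.7 in WT. The 2 groups did not overlap, although the R5W replicates lay farther apart than the WT replicates. RRP9 rose by 0.48 (SE 0.093, adjusted p = 0.00225), but with an adjusted p of 0.0847 it was not called without WT replicate 1. WDR43, of the subcomplex that binds the precursor first, had 3793 and 4170.5 scaled counts in R5W, against 2870.3 and 2886 in WT, and rose by 0.47. Of its partners, WDR75 (0.35) and UTP15 (0.29) were called and HEATR1 (0.19, adjusted p = 0.115) was not; their 95% intervals overlapped. NOP14 rose by 0.37, IMP3 by 0.27 and UTP20, a large scaffold protein, by 0.26. The helicase gene DDX10 (0.25, adjusted p = 0.0807) and IMP4 (0.21, adjusted p = 0.0677) were not called. UTP18 had 1465 and 1479 scaled counts in R5W, against 1473 and 1419 in WT, and its fold change was 0.03 (adjusted p = 0.86). Its groups overlapped, and it carries an E-box just after its start. IMP3, UTP15 and UTP20 were not called by DESeq2 on recovered reads, which left 4 of the 11, and IMP3 was not called with another scaling between libraries. Without WT replicate 1 or 2, 1 and 2 of the 11 were called.

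The late factors of the small subunit act on its precursor as it leaves the nucleolus and matures in the cytoplasm, and 5 of 7 were called, with a median of 0.40. BYSL (bystin) had 1715 and 1364 scaled counts in R5W, against 1031 and 1106 in WT. Its R5W replicates differed by 0.33 on the log2 scale, and the lower one was still above both WT values. BYSL rose by 0.52 (SE 0.109, adjusted p = 0.00379), and without WT replicate 1 it was not called (0.47, adjusted p = 0.0979). TSR1 rose by 0.44, the export factor RRP12 by 0.42, PNO1 by 0.40 and NOB1, the nuclease that makes the final cut of the small subunit rRNA, by 0.29. NOB1 was not called by DESeq2. LTV1 (0.27, adjusted p = 0.0502) lay just outside the threshold. RIOK2, a kinase of the last steps, had 1098 and 1161 scaled counts in R5W, against 1153 and 1055 in WT. The values of the groups interleaved (0.03, adjusted p = 0.829). Without WT replicate 1 or 2, 0 and 2 of the 7 were called.

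The large subunit assembly factors were called in 11 of 13 cases, with a median of 0.41. NOP16 had 1341 and 1362 scaled counts in R5W, against 891 and 805 in WT, and rose by 0.67 (SE 0.093, adjusted p = 0.000207). MRTO4, which in yeast holds the place of a ribosomal stalk protein until late in assembly, had 2860.4 and 2748 scaled counts in R5W, against 1822 and 1711 in WT, and rose by 0.67 (SE 0.081, adjusted p = 7.36e-05). RRS1, which helps to bring the 5S rRNA particle into the precursor, had 2117 and 1939 scaled counts in R5W, against 1375 and 1448 in WT, and rose by 0.52 (SE 0.086, adjusted p = 0.000762). In all 3 the lower R5W value was far above the higher WT value, with gaps of 0.59, 0.59 and 0.42 on the log2 scale. PPAN rose by 0.52, but its reads can be shared with the readthrough gene PPAN-P2RY11. That gene had 14 and 16 reads in R5W and 10 and 7 in WT. P2RY11, the other gene of the readthrough, was called higher too (0.53, adjusted p = 0.0235). It had 212 and 218 reads in R5W and 178 and 140 in WT. The part of shared reads in these changes was not tested. EBNA1BP2 (0.42), WDR74 (0.42), NIP7 (0.33), the rRNA methyltransferase NOP2 (0.26) and NOC2L (0.24) were also called, and NOC3L was not (0.13, adjusted p = 0.28). NOC2L was not called by DESeq2, nor with another scaling between libraries.

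PES1, BOP1 and WDR12 form the PeBoW complex, which is needed for processing of the large subunit rRNA. PES1 rose by 0.41 and WDR12 by 0.37. BOP1 had 416 and 279.8 scaled counts in R5W, against 289 and 304 in WT, and its fold change of 0.20 (SE 0.170, adjusted p = 0.425) was not called. R5W replicate 1 was the highest and R5W replicate 2 the lowest of its 4 libraries, and BOP1 had the largest SE of the 48 genes and the lowest level. Without WT replicate 1 or 2, 4 and 3 of the 13 large subunit factors were called.

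**Figure D3:**
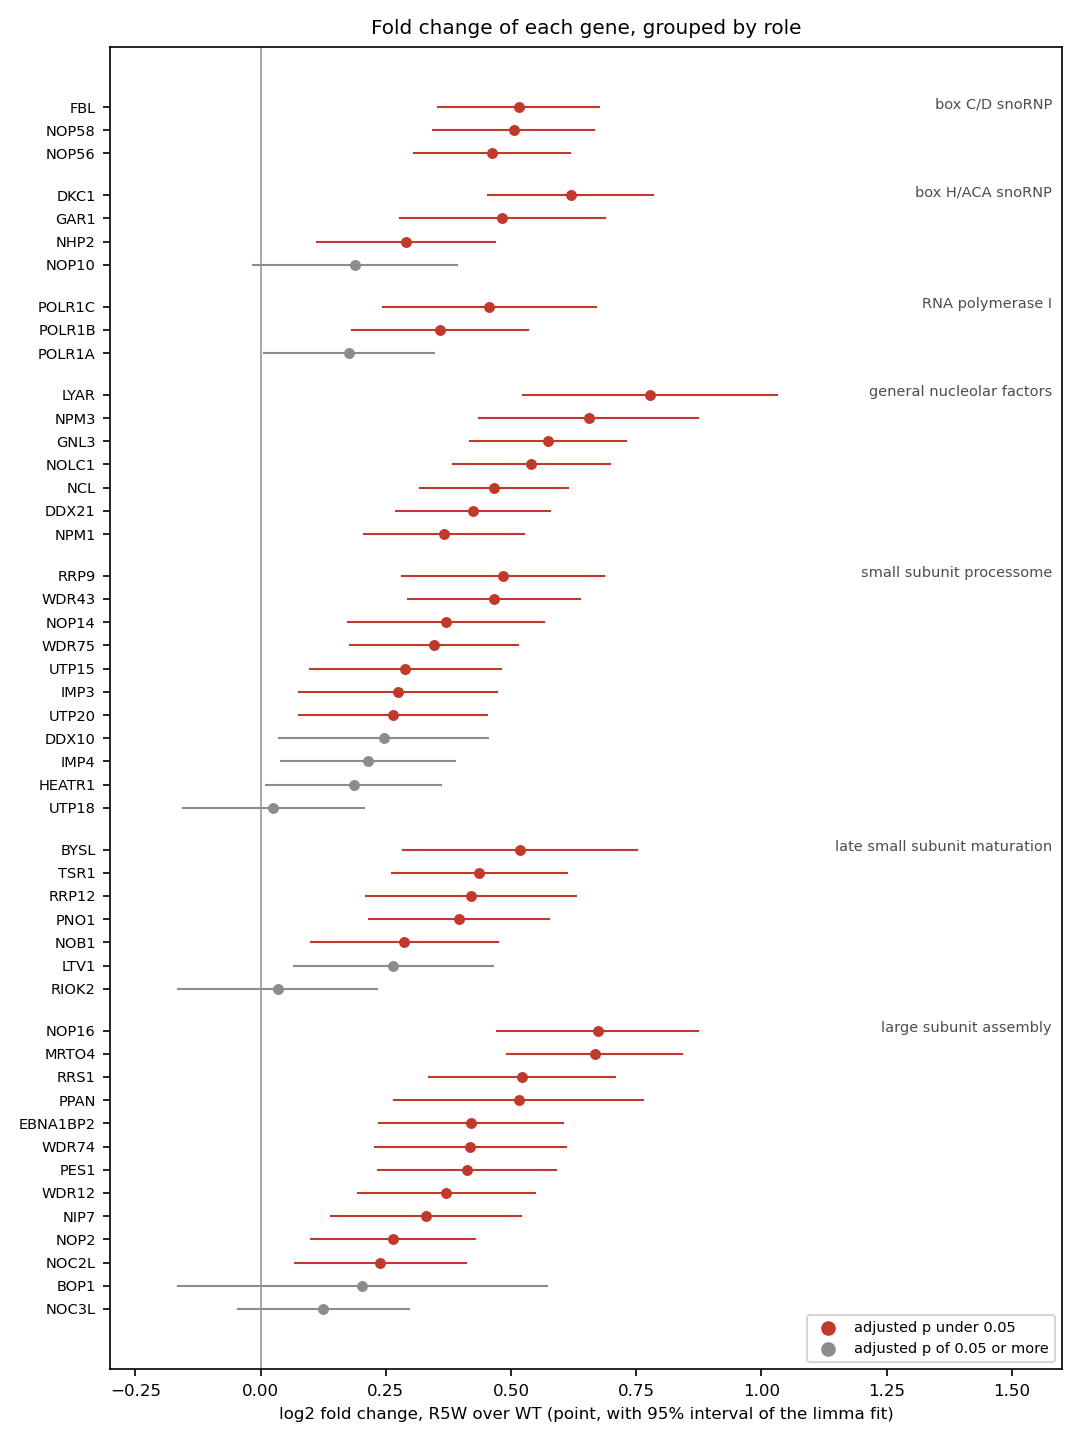
Log2 fold change of R5W over WT for the 48 genes, grouped by role and sorted within each role; points are the limma estimates and lines their 95% intervals, red for an adjusted p under 0.05 and grey for the others. All points lie above 0, from UTP18 (0.03) to LYAR (0.78).

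Divided by transcript length, so that genes can be compared with each other, the levels covered a wide range. NPM1 was highest, with a mean of 19661 scaled counts per kilobase in R5W and 15236 in WT, followed by NCL with 12365 in R5W and 8952 in WT and FBL with 8980.4 in R5W and 6286 in WT. BOP1 was lowest, with 146 in R5W and 125 in WT, and LYAR, the gene with the largest fold change, was also among the lower ones at 421 in R5W and 245 in WT. Genes of high and of low level were both among those called, and the order of levels was much alike in the 2 groups: among the 48, MRTO4 stood 20th in R5W and 25th in WT, LYAR 43rd in R5W and 46th in WT, and UTP18 32nd in R5W and 27th in WT.

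**Figure D4:**
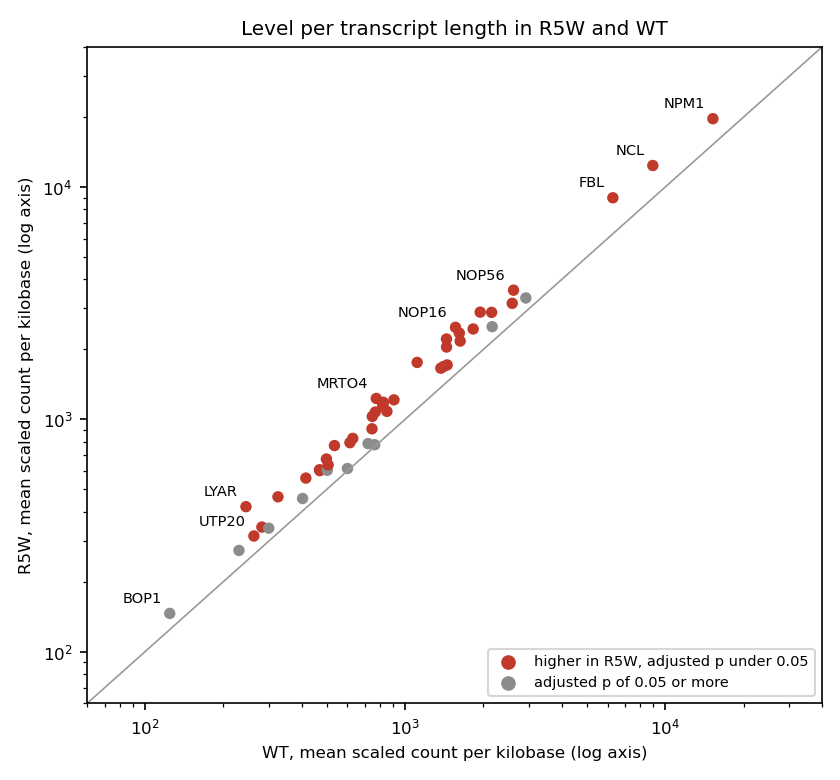
Mean scaled count per kilobase of transcript in R5W (vertical, log axis) and WT (horizontal, log axis) for the 48 genes, means of 2 libraries each; red points have an adjusted p under 0.05, grey points do not, and the diagonal marks equal levels. The points run parallel to the diagonal and above it, from BOP1 at 146 in R5W and 125 in WT to NPM1 at 19661 in R5W and 15236 in WT.

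MYC, whose protein binds the E-box, was itself higher in R5W. It had 5777 and 5737 scaled counts in R5W, against 2669 and 2590.5 in WT. The replicates agreed closely, and the difference was 1.13 on the log2 scale (SE 0.074, adjusted p = 8.14e-07), which placed MYC 281st by fold change among all genes tested. Over all alternative settings its fold change was 1.11 to 1.15. Of the 9 genes of the MYC network listed, MYC was the 1 called higher and MXD4, a MAX partner that opposes MYC, the 1 called lower (-0.60, SE 0.123, adjusted p = 0.00331). MXD4 had 342 and 313 scaled counts in R5W, against 466 and 527 in WT, and was not called without WT replicate 2 (-0.51, adjusted p = 0.111). MAX, the partner of MYC, had a fold change of -0.03 (adjusted p = 0.811). Whether the level of MYC bears on the nucleolar genes was not tested.

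Other genes of ribosome assembly, in 5 lists with 116 genes, were called higher in 47 cases (40.5%) and lower in 2 (1.72%). Over all genes, 13.1% were called higher and 11.9% lower. The median of the 116 genes was 0.19. Among 40 other small subunit factors 17 were higher and 0 lower (0 also at an unadjusted p under 0.05 and by edgeR or DESeq2; median 0.20), and among 42 other large subunit factors 18 were higher and 1 lower (median 0.20). NLE1, a large subunit factor, had the highest fold change of these lists (0.67, SE 0.096, adjusted p = 0.000289), with 1717 and 1489.9 scaled counts in R5W and 1040.5 and 974 in WT. NOP53, listed under its older symbol GLTSCR2 and also a large subunit factor, went the other way, with 9742 and 8756 scaled counts in R5W and 13503 and 12314 in WT (-0.48, SE 0.080, adjusted p = 0.000823). The RNA exosome, which trims rRNA precursors, had 6 of 12 genes higher and a median of 0.29. Of 12 other genes of the polymerase I machinery, 3 were higher, among them TCOF1 (0.52), which acts in rRNA transcription, and TAF1C was lower (-0.31), with a median of 0.14. Of 10 assembly factors of snoRNPs, 3 were higher and the median was 0.14. These counts fell when a WT library was left out, and so did the share called higher over all genes. Their ranges with 1 library left out are given by list further below. CACGTG was found in 25 of the 98 genes of the 5 lists that have a window (25.5%). The lists differed: it was in 13 of 34 other small subunit factors (38.2%) and 10 of 37 other large subunit factors (27.0%). It was in 1 of 10 exosome genes, 1 of 10 other polymerase I genes and 0 of 7 snoRNP assembly factors.

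The ribosomal proteins themselves, which the assembly factors build into the subunits, had fold changes closer to 0. Of 79 genes of cytosolic ribosomal proteins, 4 were called higher and 0 lower (13.1% and 11.9% of all genes), with a median of 0.07. None was lower by limma at an unadjusted p under 0.05, and 0 were called lower by edgeR or DESeq2. RPL13 (0.58, adjusted p = 0.000771) and RPS16 (0.41, adjusted p = 0.00238) had the highest fold changes, and RPL9 (0.33) and RPL17 (0.23) were the other two. Many of these genes have near-identical pseudogenes, so the reads of single rows are uncertain. They took 10.8% and 10.3% of the reads in R5W and 10.4% and 9.98% in WT, so the groups overlapped, and WT replicate 1 was above WT replicate 2 in 74 of the 79. The count of calls moved with the libraries, to 12 and 21 without R5W replicate 1 or 2 and to 2 and 1 without WT replicate 1 or 2. CACGTG was found in 4 of the 63 that have a window (6.35%).

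**Figure D5:**
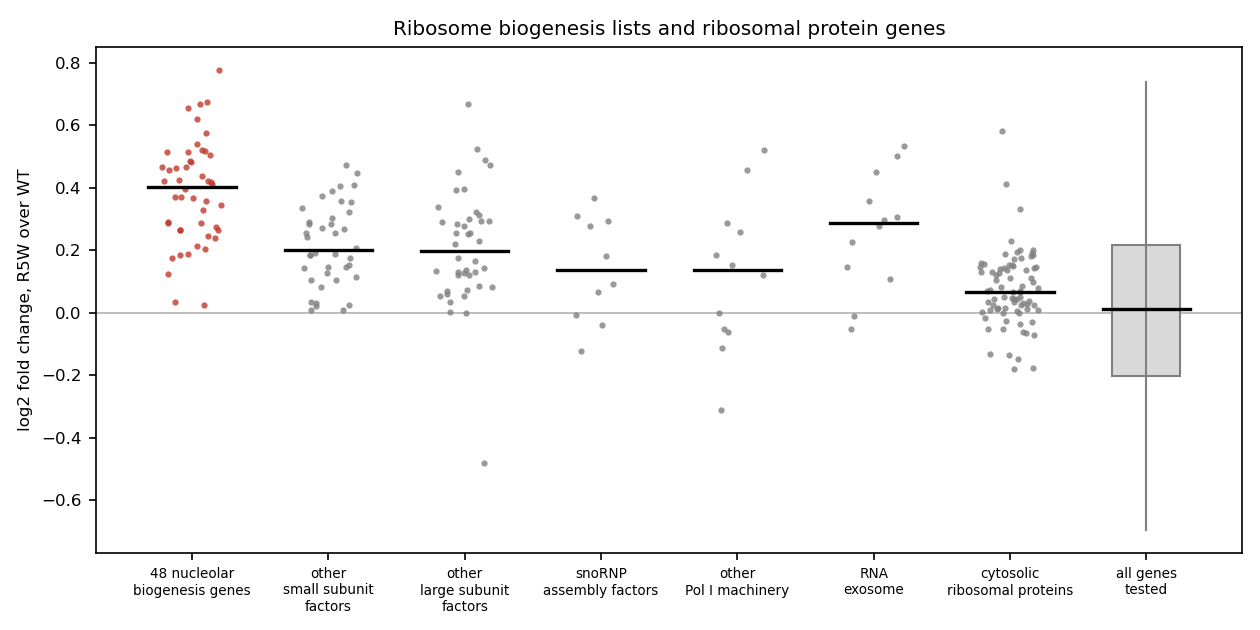
Log2 fold change of R5W over WT for the 48 nucleolar genes (red), for 5 lists of other ribosome assembly genes and for cytosolic ribosomal proteins (grey), 1 point a gene, with black bars at the medians; the box at the right holds the 25th to 75th percentile of all 13698 genes tested and its line the 5th to 95th. The medians are 0.40 for the 48 genes, 0.14 to 0.29 for the other assembly lists, 0.07 for ribosomal proteins and 0.01 for all genes.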

How the data were processed

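R5W and WT cells were profiled with a stranded mRNA kit and paired-end sequencing, per the labels' protocols. The submitters' processing notes name STAR, RSEM, Picard, cutadapt and bcl2fastq and the builds GRCh37 and hg19 for the series; versions and the tool behind each table were not given in the sources used here. Log2 values, 1 per library, were deposited for 25073 symbols beside transcript lengths in bases. Of these symbols, 27 had become dates and were left as they stood. Undoing the logarithm and dividing by the value of 1 read gave whole numbers within 0.1 read for 100% of values up to 200 reads, so each value is the log2 of a count times 1 factor per library, and 0 stands for no read. Counting error is the precision that this depth gives; the reads carry no molecular identifiers.

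Scaled counts were tested with limma 3.58.1 (trend, robust) in R 4.3.3 on log2(value + 1), for genes at 10 or more in at least 2 libraries, with Benjamini-Hochberg adjustment. Because the values proved to be log2 of scaled counts, the test planned for normalized values was used, and edgeR 4.0.16 and DESeq2 1.42.0 on recovered reads served as alternatives. Intervals are at 95%. The procedure was tested on simulated data with the same spread setting for every gene. Of 100 genes changed by 0.5 on the log2 scale, limma and edgeR each called 82% and DESeq2 63%. Smaller changes were not simulated, so the simulation does not cover genes with lower fold changes. Differences between replicates were almost uncorrelated across genes between R5W and WT (-0.06), and the main fit did not pair the libraries. This correlation cannot show whether libraries of the same replicate number were prepared together.

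The genes, role lists and other lists were chosen with earlier results of these data known; 20 list genes were matched by Entrez gene ID, and the others by symbol. Values per library are given for the called genes with the largest fold changes, up to 8, for at least 1 gene of each role, and for some others; of the other lists, up to 4 genes in each direction, plus RHOA and MYC, and a few further genes were named after their values were seen. 1 gene that this rule names is not reported here. The authors deposited raw counts for the drug-treated lines under Ensembl IDs. For TMD8, 28 of the 48 genes had under 10 mean counts in DMSO (3 libraries), and NCL had 19.3 counts against a mean of 20270 reads in WT. RRP12 went the other way, with 5580 mean counts against 1532 mean reads in WT. The counts under many of these IDs thus did not follow the levels in WT, and the drug tables were not used. Tables of the other drug-treated lines were not checked. Promoter sequences are from RefSeq (GRCh38.p14).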

Additional observations from a re-analysis of the deposited data

How the results depend on the processing

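Of the 38 calls, 33 held in all settings that kept every library, and 13 held in all 14 settings. Pseudocounts of 0.5 and 5, no filter, limma without robust and edgeR called the same 38 genes; a filter at 50 added LTV1. TMM and median ratio scaling each lost IMP3 and NOC2L, and DESeq2 lost IMP3, NOB1, NOC2L, UTP15 and UTP20, leaving 4 called in the small subunit processome; the cause was not tested. Leaving out 1 library moved the calls more. Genes called higher ranged from 561 to 2817 and genes called lower from 463 to 2851 of all tested, and the 48 nucleolar genes from 14 to 44 calls. By list, the calls ranged from 1 to 4 for box H/ACA snoRNPs, from 0 to 3 for RNA polymerase I, from 1 to 9 for the small subunit processome, from 0 to 6 for late small subunit maturation, from 3 to 12 for large subunit assembly, from 1 to 27 for other small subunit factors, from 2 to 27 for other large subunit factors, from 0 to 4 for snoRNP assembly factors, from 1 to 5 for other polymerase I machinery, from 0 to 8 for the exosome, from 1 to 2 for the MYC network, from 1 to 21 for ribosomal proteins and from 1 to 2 for B-cell markers. The 2 R5W libraries differed more from each other across all genes (SD 0.37 on the log2 scale) than the 2 WT libraries (0.29); the part of this in the lower counts without a WT library was not tested. The median over the 48 genes stayed between 0.35 and 0.43. The fold change was below 0 for BOP1 without R5W replicate 1, for RIOK2 without R5W replicate 2, and for UTP18 and RIOK2 without WT replicate 2; BOP1 was called higher without R5W replicate 2. With the replicate number as a block, all 38 calls held and 1927 genes were called higher and 1786 lower. With 2 libraries per group and this depth, the lowest called log2 fold change of the 48 was 0.24 (NOC2L), while 0.27 (LTV1) was not called.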

Other observations

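Long RNAs that host small nucleolar RNAs in their introns, whose snoRNAs enter the snoRNPs described above, were looked at after the other values had been seen. Of 12 such genes by symbol (GAS5 and SNHG genes), 7 were called higher in R5W and 0 lower, all 12 had a fold change above 0, with a median log2 fold change of 0.34; 13.1% of all genes were called higher. SNHG4 was highest, with log2 values of 8.07 and 8.46 in R5W and 7.60 and 7.58 in WT (0.68, SE 0.157, adjusted p = 0.00704). GAS5 had log2 values of 12.28 and 12.29 in R5W and 11.97 and 12.06 in WT (0.27, adjusted p = 0.0181). In 11 of the 12 both R5W values lay above both WT values, which held for 32.4% of all genes. SNHG11 was the exception, with a fold change of 0.02 (adjusted p = 0.954). The rows count the host RNAs, not the snoRNAs. Calls in this list were not counted with 1 library left out, so their dependence on single libraries is not known.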
